A study of Sus scrofa with 4 samples.

Results

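The neurotrophins BDNF and NTF3, the neurotrophin receptors NTRK2, NTRK3 and NGFR, and the sorting receptor SORT1 were examined in sorted hair follicle and epidermal cells of the pig. These 6 genes were chosen by name, and all 6 were found among the 29837 named genes of the count table. Cells came from the skin of 2 juvenile pigs, 88R and 95R, which carry H2B-GFP, a histone joined to green fluorescent protein, at one LGR5 allele, while the other allele keeps LGR5. Dispase separated the hair and epidermis from the dermis, and 1 LGR5-high (GFP-hi) and 1 LGR5-negative (GFP-neg) library was sequenced from each pig. The knock-in animals go back to clonal fibroblast lines by nuclear transfer, the negative population is every GFP-negative cell of the same skin, and the histone-bound GFP is diluted as cells divide, so GFP can outlast LGR5 RNA in a cell.

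Neurotrophins are secreted growth factors that are made as longer precursors, the proneurotrophins, and cut by furin-type proteases or outside the cell by plasmin and metalloproteinases. The mature factors act through the Trk receptor tyrosine kinases, of which NTRK2 (TrkB) binds BDNF and NTF4, and NTRK3 (TrkC) binds NTF3. These ligands also bind NGFR (p75NTR), a member of the TNF receptor family that has no kinase of its own. SORT1 (sortilin) carries proteins between the Golgi, the surface and the lysosome, and together with NGFR it forms the receptor for proneurotrophins. In skin, neurotrophins are known for guiding sensory nerves to the follicle and for acting on keratinocytes during the hair cycle.

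The libraries held between 30696803 and 32463362 counts on named genes, and 3 counts, used as the floor of detection, stood for 0.0873 to 0.105 CPM. CPM are counts scaled to a common library size with the TMM factors of edgeR. LGR5 itself had 4551 and 6224 counts in LGR5-high and 36 and 109 counts in LGR5-negative, and the keratinocyte genes KRT5, TP63 and CDH1 had 15430 counts or more in every library. Since whole populations were sequenced, a lower value can mean fewer cells that express a gene or less RNA in each cell, and these cannot be told apart. No transcript lengths of the authors' annotation were used, so levels are compared between libraries and not between genes.

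Of the 6 genes, NGFR, SORT1, BDNF and NTRK3 passed the threshold of 0.05 on the Benjamini-Hochberg adjusted p of the quasi-likelihood test in edgeR, and all 4 were higher in LGR5-high. Of the 15980 genes tested, 22.7% were higher, 22% lower and 44.7% either. No member was lower (0 of 6, also at an unadjusted p under 0.05). These p-values rest on the spread between the libraries of 2 animals, with the error of each gene moderated over all genes. The fit did not pair the libraries of a pig. NTRK2 and NTF3 did not pass the threshold, and the calls for both changed when the pig was added to the model. With a replicate block for the pig, in which each LGR5-high library is compared with the LGR5-negative library of the same animal, 5 genes were higher and 1, NTF3, was lower, beside 28.5% higher, 27.2% lower and 55.7% either of all genes. DESeq2 called 4 higher and 0 lower without the block, and 5 and 0 with it. Of all 15980 genes it called 3329 higher and 3387 lower without the block, and 3002 and 3146 with it. NGFR, SORT1 and BDNF were called with an increase of at least 4-fold, beside 8.79% of all genes tested, and BDNF was near this limit, with a log2 fold change of 1.75 without LGR5-negative of pig 88R. The median log2 fold change of the 6 was 1.94, and that of all genes tested was 0.02.

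**Figure D1:**
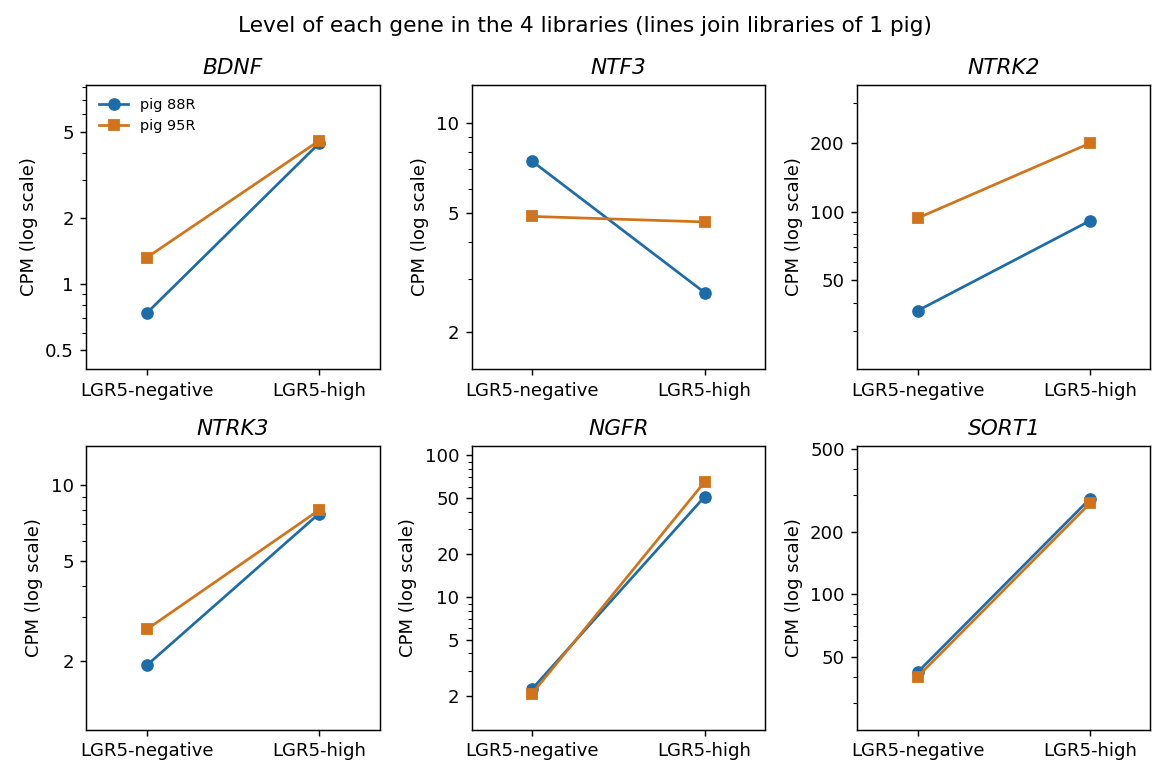
CPM on a log axis for each of the 6 genes in the LGR5-negative and LGR5-high libraries, with a line joining the libraries of 1 pig (circles 88R, squares 95R). The lines of SORT1 lie on each other, those of NTRK2 run in parallel at different heights, and the line of NTF3 falls in pig 88R and is nearly level in pig 95R.

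NGFR, the p75 neurotrophin receptor, had the largest increase of the 6. It had 1757 counts in LGR5-high of pig 88R and 2149 in LGR5-high of pig 95R, against 64 and 63 in LGR5-negative. Both LGR5-high libraries were far above both LGR5-negative libraries, and the LGR5-negative libraries were nearly alike. The mean level was 58.1 ± 9.86 CPM in LGR5-high, against 2.17 ± 0.114 CPM in LGR5-negative (SD, n = 2 pigs). The difference was 26.8-fold, with a log2 fold change of 4.74 (standard error 0.178, 95% interval 4.30 to 5.18, edgeR adjusted p = 6.28e-05). NGFR rose 22.2-fold in pig 88R and 30.3-fold in pig 95R, and 1.44% of the genes tested had a larger log2 fold change.

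SORT1, the partner of NGFR in the proneurotrophin receptor, was counted 9927 times in LGR5-high of pig 88R and 9070 times in LGR5-high of pig 95R, against 1198 and 1209 times in LGR5-negative. The values of the pigs were close within each population, with LGR5-high at 289 and 275 CPM and LGR5-negative at 42.0 and 40.0 CPM. SORT1 thus rose by a log2 fold change of 2.78 (standard error 0.0841, 95% interval 2.57 to 2.99, edgeR adjusted p = 4.19e-05), and it was 2.78 in each pig. This 6.87-fold increase is not independent evidence, since the study drew SORT1 among its strongest genes from these same libraries. NGFR and SORT1 were the members called under each of the 11 other settings of scaling, filter, test and adjustment, Bonferroni adjustment included.

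BDNF, a ligand of NTRK2, was counted at a low level. It had 152 counts in LGR5-high of pig 88R and 150 in LGR5-high of pig 95R, against 21 and 40 in LGR5-negative. The LGR5-high libraries were alike, at 4.42 and 4.54 CPM, while LGR5-negative of pig 95R, at 1.32 CPM, was above that of pig 88R, at 0.737 CPM. The means were 4.48 ± 0.0842 CPM and 1.03 ± 0.415 CPM (SD, n = 2), and the log2 fold change was 2.11 (standard error 0.337, 95% interval 1.28 to 2.95, edgeR adjusted p = 0.00465). BDNF rose 5.60-fold in pig 88R and 3.32-fold in pig 95R. The strand setting of the counting is not given in the sources used here, so reads of an antisense transcript at the gene would not be told apart from BDNF. The counts also do not separate the promoters from which BDNF is known to be transcribed.

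NTRK3, the receptor of NTF3, had 266 counts in LGR5-high and 55 in LGR5-negative of pig 88R, and 264 and 81 in pig 95R. The populations did not overlap, as was the case for 76.6% of all genes tested. The mean level of NTRK3 was 7.86 ± 0.179 CPM in LGR5-high, against 2.31 ± 0.531 CPM in LGR5-negative (SD, n = 2). Its log2 fold change was 1.77 (standard error 0.237, 95% interval 1.18 to 2.35, edgeR adjusted p = 0.00248), with a 3.91-fold increase in pig 88R and a 2.94-fold increase in pig 95R. BDNF and NTRK3 were called under 9 of the 11 other settings.

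NTRK2, the receptor of BDNF and NTF4, differed between the animals as much as between the populations. It had 3144 counts in LGR5-high and 1049 in LGR5-negative of pig 88R, and 6612 counts in LGR5-high and 2835 in LGR5-negative of pig 95R. The LGR5-negative library of pig 95R, with 93.8 CPM, was therefore level with the LGR5-high library of pig 88R, with 91.5 CPM, and the populations overlapped. Within each pig NTRK2 was higher in LGR5-high, by 2.48-fold in pig 88R and 2.13-fold in pig 95R. Across the 4 libraries the log2 fold change was 1.16 (standard error 0.520, 95% interval -0.13 to 2.44), and it did not pass the threshold (edgeR adjusted p = 0.122). With this replicate block for the pig, the log2 fold change was 1.20 (standard error 0.0951, edgeR adjusted p = 7.67e-09), and DESeq2 with the block gave 1.19 (adjusted p = 2.82e-18). Single libraries were left out in fits without the block. Each such fit kept 1 pig in 1 population only, so the difference between the pigs entered the estimate. The log2 fold change was 0.49 without the LGR5-high library of pig 95R and 0.63 without the LGR5-negative library of pig 88R. It was 1.98 without the LGR5-negative library of pig 95R.

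The difference between the pigs was itself tested with the pig term of the blocked model, which was chosen after the values had been seen. NTRK2 was higher in pig 95R by a log2 difference of 1.24 (standard error 0.0952, edgeR adjusted p = 5.14e-07), with 2.19 times the CPM of pig 88R in LGR5-high and 2.55 times in LGR5-negative. Of all genes tested, 1.78% were higher in pig 95R, 2.52% were lower and 4.29% differed either way. The edgeR adjusted p-values of the other 5 members for the pig term lay between 0.531 for NGFR and 0.976 for NTF3. NTRK2 is known to give full-length and kinase-truncated transcripts, and counts per gene do not separate them.

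NTF3, the ligand of NTRK3, was the member with an estimate below 0. It had 93 counts in LGR5-high and 212 in LGR5-negative of pig 88R, and 154 and 147 counts in pig 95R. The level was 2.71 and 7.44 CPM in pig 88R and 4.66 and 4.86 CPM in pig 95R, so the values of pig 88R were far apart, those of pig 95R were nearly level, and a narrow gap separated the populations. Scaled by library size only, the values of pig 95R were 5.02 CPM for LGR5-high against 4.53 CPM for LGR5-negative, and the order in this pig was turned. The log2 fold change was -0.74 (standard error 0.349, 95% interval -1.60 to 0.12, edgeR adjusted p = 0.136). Pig 88R gave -1.44 and pig 95R -0.06. The replicate block gave -0.75 with an edgeR adjusted p of 0.0278, while DESeq2 with the block gave -0.76 with an adjusted p-value of 0.163. Without either library of pig 88R the log2 fold change was -0.41, and without those of pig 95R it was -1.18 and -1.02.

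By log2 fold change the members were ordered NGFR, SORT1, BDNF, NTRK3, NTRK2 and NTF3. The 95% intervals of NGFR (4.30 to 5.18) and SORT1 (2.57 to 2.99) were apart. Those of all other neighbours in this order overlapped. Differences between genes were not tested.

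**Figure D2:**
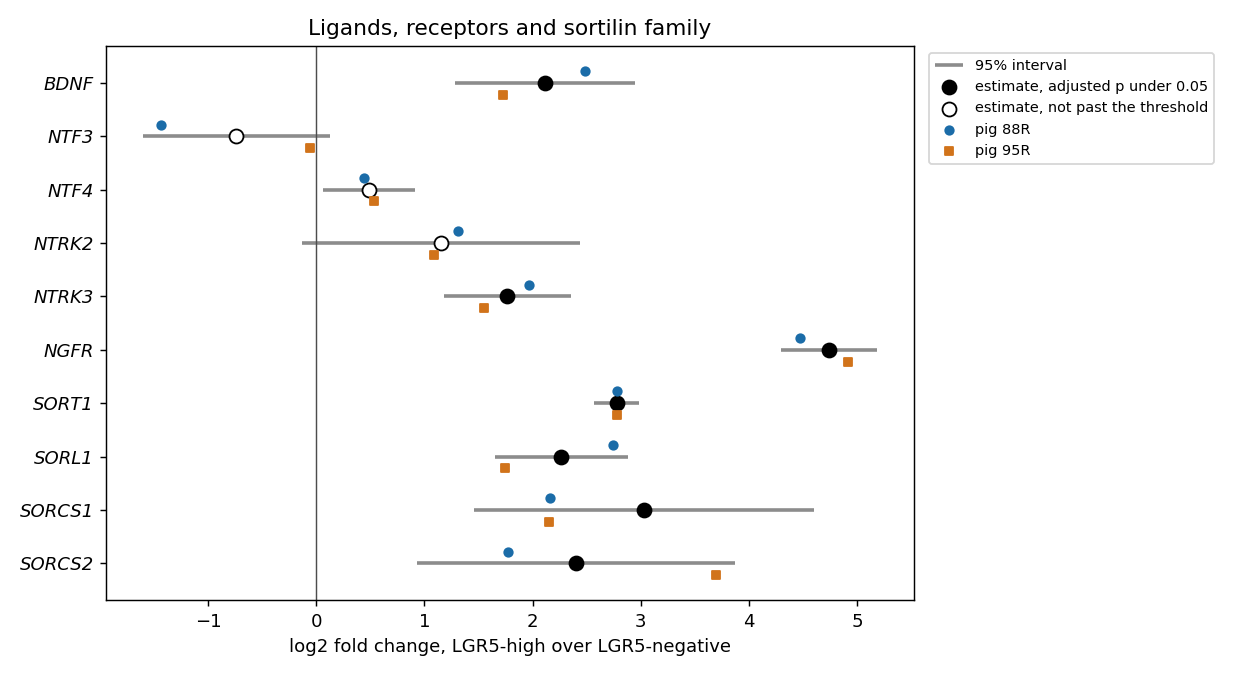
Log2 fold change of LGR5-high over LGR5-negative for BDNF, NTF3, NTF4, NTRK2, NTRK3, NGFR and the tested sortilin family genes, with 95% intervals (grey lines), the estimate over the 4 libraries (filled where the adjusted p was under 0.05, open where not) and the value of each pig (circles 88R, squares 95R). NGFR stands at 4.74, the sortilin family genes lie between 2.27 and 3.03, and of the 3 ligands shown only BDNF is filled. The value of 3.03 is that of SORCS1, which entered the test only through its LGR5-high counts. SORT1, SORL1 and SORCS2 lie between 2.27 and 2.78.

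NTF4, which acts on NTRK2 as BDNF does, had 526 and 434 counts in LGR5-high and 320 and 274 in LGR5-negative of pigs 88R and 95R. Its log2 fold change of 0.49 did not pass the threshold (edgeR adjusted p = 0.0636) and was close in both pigs, at 0.44 and 0.53. It passed with the replicate block (0.49, edgeR adjusted p = 0.0083) and with upper quartile scaling (0.58) or library size only (0.71).

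SORT1 belongs to the VPS10P-domain receptors with SORL1 and SORCS1 to SORCS3. The counts of all 5 were higher in LGR5-high in both pigs, and the CPM of the populations did not overlap. Over all genes tested, the populations did not overlap for 76.6%, in either direction. SORL1, a sorting receptor of endosomes, had 1543 and 986 counts in LGR5-high and 189 and 268 in LGR5-negative, with a log2 fold change of 2.27 (standard error 0.249, edgeR adjusted p = 0.0012). SORCS2, which is also known as a proneurotrophin co-receptor of NGFR, had 1704 and 1461 counts in LGR5-high and 413 and 101 in LGR5-negative, and a log2 fold change of 2.40 (standard error 0.595, edgeR adjusted p = 0.0215). Pig 88R gave a log2 fold change of 1.77 for it, pig 95R gave 3.70, and the LGR5-negative libraries lay further apart than the LGR5-high libraries. Without either LGR5-high library SORCS2 lost its call, with edgeR adjusted p-values of 0.0723 and 0.0698.

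SORCS1 and SORCS3 were near the limit of detection. SORCS1 had 13 and 17 counts in LGR5-high and 1 and 2 in LGR5-negative, a ratio of 8.71 with a 95% counting interval of 2.71 to 44.6. It entered the test through its LGR5-high counts alone (edgeR adjusted p = 0.0123). DESeq2 did not call it (adjusted p = 0.0718), and the call was also lost without LGR5-high of pig 88R (edgeR adjusted p = 0.0580), LGR5-negative of pig 88R (0.0736) or LGR5-high of pig 95R (0.0991). SORCS3 had 8 and 8 counts in LGR5-high and 1 and 0 in LGR5-negative, a ratio of 13.9 with a counting interval of 2.17 to 584, and was filtered out. These exact binomial intervals cover counting error only. With at least 10 counts required in every library, 3 sortilin family genes were left, SORT1, SORL1 and SORCS2. All 3 were called higher, beside 3089 of the 14105 genes kept. Fits without LGR5-high of pig 88R or of pig 95R kept 1 LGR5-high library. In these 2 fits the log2 fold change was 2.73 and 2.82 for SORT1. It was 1.94 and 2.54 for SORL1, and 2.30 and 2.48 for SORCS2.

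Around the receptors and ligands, 4 further lists held the proneurotrophin proteases, the intracellular and membrane partners of NGFR, the adaptors of the Trk receptors, and the trafficking partners and cargo of sortilin. Their medians were 0.01, -0.08, -0.02 and -0.04 on the log2 scale, beside 0.02 for all genes tested. Over all 7 lists, which hold 65 genes, 59 were tested, of which 21 were higher and 14 lower by the same threshold in edgeR, beside 22.7% and 22% of all genes tested. With the replicate block 23 were higher and 19 lower, beside 28.5% and 27.2% of all genes. SORCS1, SHC2 and NTSR1 among the higher genes and MMP9 among the lower genes entered the test only through the population in which their counts were high. With at least 10 counts required in every library, 18 were higher and 12 lower, beside 3089 and 3104 of the 14105 genes kept. The shares of 22.7% and 22% of all genes are the background for the counts of each list. Without the 6 members, 17 were higher and 14 lower of the 53 tested.

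**Figure D3:**
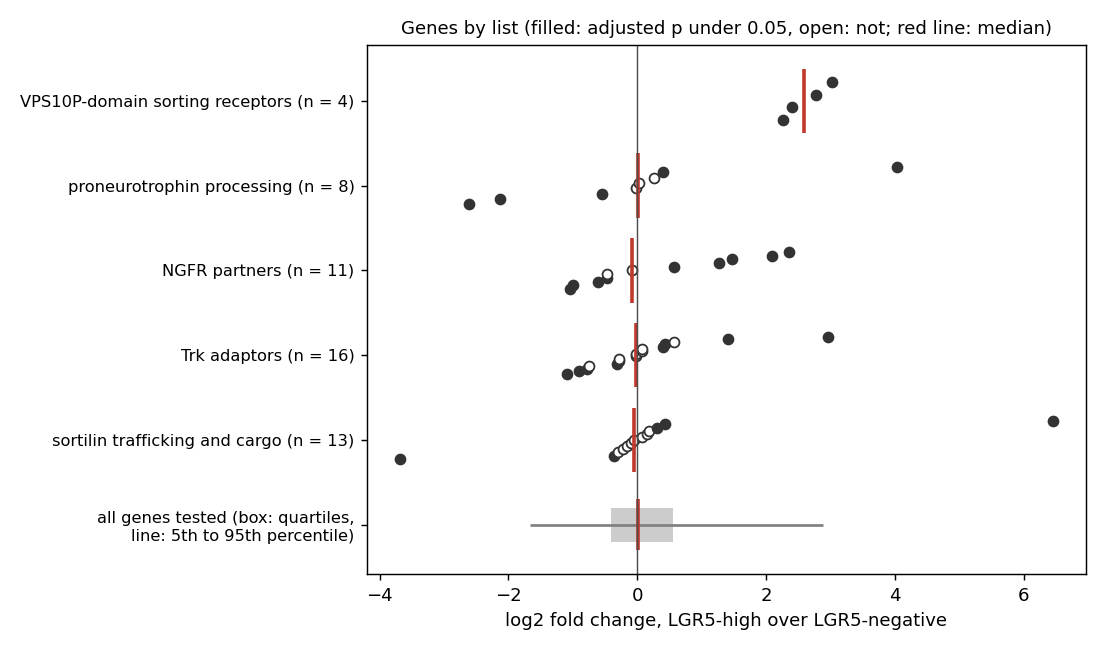
Log2 fold change of LGR5-high over LGR5-negative for each tested gene of the sortilin family and of the 4 further lists (filled where the adjusted p was under 0.05, open where not), with the median of each list in red and, at the bottom, the quartiles and the 5th to 95th percentiles of all 15980 genes. The sortilin family lies to the right of 0, and the other lists are centred near 0, with medians between -0.08 and 0.01. In the sortilin family, SORCS1 entered the test only through its LGR5-high counts.

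Of the 10 proneurotrophin processing genes, 8 were tested, 2 were higher and 3 lower. The proprotein convertase PCSK5 had 344 and 246 counts in LGR5-high against 11 and 20 in LGR5-negative, a log2 fold change of 4.04 (standard error 0.342, edgeR adjusted p = 4.97e-04). FURIN, a convertase of the same family, had a log2 fold change of 0.40 (edgeR adjusted p = 0.0210). PLAU, the urokinase that activates plasminogen, fell by 2.13 on the log2 scale, and MMP9, a gelatinase with between 1 and 19 counts per library, fell by 2.61 (2 genes of the list were lower with 10 counts in every library). PLG and MMP3, plasminogen and a stromelysin, had 1 count at most in any library and were not tested.

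Of the 11 NGFR partners, all were tested, 5 were higher and 4 lower. LINGO1, a membrane co-receptor of NGFR in myelin inhibitor signalling, had a log2 fold change of 2.36, and BEX3, an adaptor that binds the NGFR death domain, had 2.10. RTN4R, the Nogo receptor of the same complex as LINGO1, fell by 1.04 on the log2 scale, and RIPK2, a kinase that binds NGFR, fell by 0.99. The complex of LINGO1, RTN4R and NGFR thus had members called in both directions.

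Of the 17 Trk adaptors and effectors, 16 were tested, 4 were higher and 5 lower. SHC1, the common adaptor at the Trk juxtamembrane tyrosine, fell by 1.09 on the log2 scale, and its relative SHC2 had 34 and 48 counts in LGR5-high against 3 and 6 in LGR5-negative, with a log2 fold change of 2.96. With 10 counts in every library SHC2 was left out, and 3 genes of the list were higher. FRS3, a docking protein, had a log2 fold change of 1.41, and GAB1, a scaffold for PI3 kinase, fell by 0.90 on the log2 scale. PLCG1, the phospholipase that binds the Trk tail, was higher with 0.44.

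Of the 14 trafficking and cargo genes of sortilin, 13 were tested, 3 were higher and 2 lower. The retromer genes VPS35, VPS26A and VPS29 did not pass the threshold, with log2 fold changes of -0.17, 0.18 and -0.04. VPS26B, also of the retromer, was higher with 0.30 (edgeR adjusted p = 0.0325). GGA2, a Golgi adaptor of sortilin, had a log2 fold change of 0.43. NTSR1, a receptor of neurotensin, which is itself a ligand of sortilin, had 60 and 64 counts in LGR5-high and 1 and 0 in LGR5-negative, a ratio of 108 with a counting interval of 19.0 to 4300, and it was left out where 10 counts were required in every library. LPL, the lipoprotein lipase, fell by 3.69 on the log2 scale, from 584 and 1050 counts in LGR5-negative to 53 and 91 in LGR5-high, and IGF2R fell by 0.36. NTS, the gene of neurotensin, had 3 counts or fewer in every library.

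NGFR, NTRK2 and NTRK3 are also known in Schwann cells, nerve endings and melanocytes, so markers of these and other cells were read in the same libraries. The 14 Schwann and nerve markers summed to between 13.6 and 21.6 CPM in LGR5-high and between 16.4 and 24.95 CPM in LGR5-negative, with MBP and S100B the most abundant. SOX10, a defining gene of Schwann cells and melanocytes, had 19 and 23 counts in LGR5-high and 66 and 174 in LGR5-negative, and CDH19 had 0 counts in every library. Of the 6 tested, S100B was higher and SOX10 and MBP were lower. The 6 melanocyte markers, led by PMEL and DCT, summed to 61.9 CPM in both LGR5-high libraries and to between 82.7 and 256 CPM in LGR5-negative, and 4 of them were lower in LGR5-high.

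Of the 7 Merkel cell markers 2, PIEZO2 and CHGA, were tested, which they entered through their LGR5-high counts, and both were higher in LGR5-high. The 7 summed to between 16.3 and 19.9 CPM in LGR5-high and between 0.947 and 1.82 CPM in LGR5-negative. Nearly all of the LGR5-high sum was PIEZO2, a mechanosensitive channel, with 389 and 238 counts in LGR5-high and 9 and 23 in LGR5-negative, and CHGA, chromogranin A, with 277 and 246 against 4 and 9. The other 5 markers had 21 counts or fewer in every library and were not tested, with 3 and 21 for ATOH1, 3 and 5 for SOX2 and 10 and 8 for KRT20 in LGR5-high, and KRT20 had 8 and 12 in LGR5-negative. The part of these cells in the levels of NGFR, NTRK2, NTRK3 and BDNF was not tested.

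Markers of other cells were lower or mixed. The 4 leukocyte markers, led by CD74 and CD207, summed to between 6.02 and 7.74 CPM in LGR5-high and between 86.4 and 126 CPM in LGR5-negative, and the 5 vessel and mural markers, led by PECAM1 and VWF, to between 7.27 and 8.26 CPM and between 17.8 and 19.2 CPM. Of these vessel and mural markers, RGS5 went the other way and was higher (log2 fold change 1.69, edgeR adjusted p = 0.0155). It had 88 and 54 counts in LGR5-high against 21 and 17. VWF, CDH5 and KDR were lower, and CDH5 and KDR entered the test only through their LGR5-negative counts. The 7 dermal fibroblast markers, led by COL1A1 and DCN, summed to between 232 and 449 CPM in LGR5-high and between 225 and 347 CPM in LGR5-negative. Of the 6 fibroblast markers tested, COL1A1 was higher (log2 fold change 1.85) and DCN (-0.82), PDGFRA (-2.74), LUM (-4.10) and COL3A1 (-3.09) were lower. PDGFRA had 4 and 3 counts in LGR5-high against 21 and 21, and LUM 5 and 0 against 47 and 31. These 2 entered the test only through their LGR5-negative counts. Of the follicle stem cell markers, led by KRT15 and TBX1, 4 of 5 were higher, beside 22.7% of all genes tested. LGR5 is 1 of these 4, and its call is not independent of the sort on LGR5-driven GFP. The study had also named LGR5 and SOX9 as higher from these same libraries. The 5 markers summed to between 2582 and 3822 CPM in LGR5-high and between 743 and 1363 CPM in LGR5-negative. Nearly all of the LGR5-negative sums was KRT15, the marker not called, with 715 and 1324 CPM in pigs 88R and 95R. Of the keratinocyte markers, led by KRT5 and KRT10, 2 of the 5 analysed here, KRT1 and KRT10, were lower, and the sums were between 30270 and 31510 CPM in LGR5-high and between 80760 and 93068 CPM in LGR5-negative.

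The genes with the most similar profile were found by the distance between centred log2 CPM values over the 4 libraries, which share depth, pigs and sort. They were CCDC184 and TDRP for SORT1 (distances 0.0456 and 0.0659), NTM and CHST1 for NGFR (0.108 and 0.144), PLPPR1 and CASTOR2 for BDNF (0.0890 and 0.106), and PLBD1 and PLXNA2 for NTRK3 (0.0453 and 0.0960). NTRK2 was nearest to APAF1 (0.114) and FGF13 (0.301), and NTF3 to NDST3 (0.167) and SMKR1 (0.191).

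**Figure D4:**
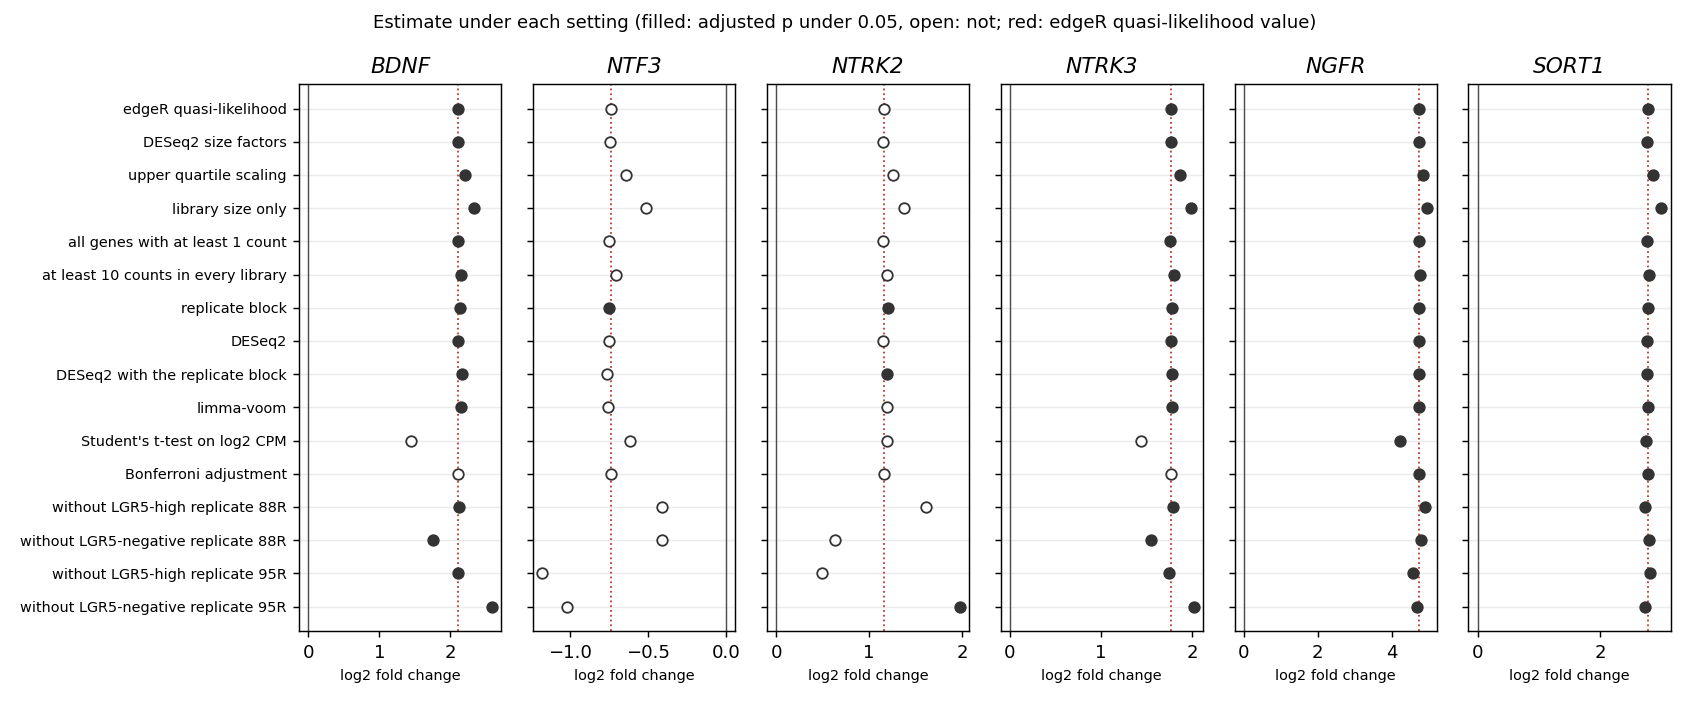
Log2 fold change of each of the 6 genes under the main test (top) and under each other setting, filled where the adjusted p-value was under 0.05 and open where not, with the main value as a dotted line and 0 as a solid line. NGFR and SORT1 are filled throughout, NTF3 is filled with the replicate block only, and the values of NTRK2 spread between 0.49 and 1.98 when single libraries are left out.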

How the data were processed

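RNA of LGR5-high and LGR5-negative cells of 2 pigs was sequenced from poly(A)-selected libraries. The deposited table holds raw, whole-number counts of reads by gene symbol that the authors did not normalize. The submitters' processing notes name Trimmomatic 0.36, STAR 2.5.2b and featureCounts of Subread 1.5.2, and the genome build and strand setting are not given in the sources used here. All 4 columns were used, and 1 entry without a name (0.36% to 0.63% of counts) was left out. All 29837 names matched a RefSeq symbol of the pig.

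Counts were tested in R 4.3.3 with edgeR 4.0.16 (filterByExpr at 10 counts and 15 counts in total, scaling by the trimmed mean of M-values or TMM, 2-sided quasi-likelihood test, Benjamini-Hochberg adjustment over all 15980 genes). The standard error is the log2 fold change divided by the root of F. Values within a pig used a prior count of 2. The methods of the study name Student's t-test, which was run on log2 CPM with a pseudocount of 1 as an alternative. The libraries of a pig were paired by the animal number in the labels, and after removing the mean of each population they correlated across genes with r = 0.370. An exact permutation test of 2 against 2 libraries cannot go below p = 0.333 and was not used. The tests were tested on simulated data.

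The members and lists were chosen with earlier results of these data known. The text names all members, NTF4, the other genes of the sortilin list, up to 2 higher and 2 lower called genes with the largest change in each other pathway list, the 2 most abundant markers of each marker list and the 2 nearest profiles. PLCG1, the retromer genes, NTS, PLG, MMP3 and the further markers named were chosen after their values were seen. Some listed genes are not reported here, and the counts over the lists include them. The alternatives were DESeq2 size factors, upper quartile scaling, library size only, 2 other filters, the replicate block, DESeq2 1.42.0 with and without the block, limma-voom (limma 3.58.1), the t-test, Bonferroni adjustment and leaving out each library. Plots were drawn with matplotlib 3.10.9.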

Additional observations from a re-analysis of the deposited data

How the results depend on the processing

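No member changed direction under any of the 11 other settings or when a library was left out. Student's t-test called 2 members higher and Bonferroni adjustment 2, NGFR and SORT1, instead of 4. Of all 15980 genes they called 544 and 194 higher instead of 3632. The replicate block called 1 member lower instead of 0, beside 4342 lower of all genes instead of 3508. BDNF lost its call with the t-test (log2 fold change 1.45, adjusted p = 0.0818) and with Bonferroni adjustment of the edgeR p-value (2.11, adjusted p = 1), and so did NTRK3 (1.43, adjusted p = 0.0697, and 1.77, adjusted p = 1). The paired fits with the replicate block gained a call for NTRK2 (1.20 in edgeR, 1.19 in DESeq2), and edgeR but not DESeq2 gained one for NTF3 (-0.75). Leaving out 1 library, in fits without the block, moved NTRK2 between 0.49 and 1.98. Where this left a population with 1 library, it was assumed to vary like the other population. Over the 65 listed genes, with 21 higher and 14 lower in the main test, library size only gave 26 and 9. This was 74.3% higher among the called genes instead of 60%. Over all genes tested the same share was 70.2% instead of 50.9%. The t-test gave 5 and 3, beside 544 and 502 of all 15980 genes, and Bonferroni adjustment 2 and 0, beside 194 and 130. DESeq2 called 20 higher and 14 lower, beside 3329 and 3387 of all genes. Fits with 1 library left out had 1 library in a population, and their calls over the lists are not counted here. The median log2 fold change of all genes was 0.02 with TMM, 0.11 with upper quartile scaling and 0.24 with library size only, and all changes are relative to it. The causes were not tested. Depth limits SORCS1 and SORCS3, which had 17 counts or fewer in every library.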

Other observations

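Ratios of counts within a library do not depend on the scaling between libraries, although they are not ratios of molecules. They were computed after the values had been seen, and no test was made. The counts of NGFR per count of NTRK2 were 0.559 in LGR5-high and 0.0610 in LGR5-negative of pig 88R, and 0.325 and 0.0222 in pig 95R. The ratio was 9.16 times higher in LGR5-high in pig 88R and 14.6 times in pig 95R. The counts of the ligand BDNF per count of the ligand NTF3 were 1.63 and 0.0991 in pig 88R and 0.974 and 0.272 in pig 95R, which is 16.5 and 3.58 times higher in LGR5-high. SORT1 per count of SORL1 was 6.43 and 6.34 in pig 88R, and 9.20 and 4.51 in pig 95R, so the ratio was nearly level in pig 88R and 2.04 times higher in LGR5-high of pig 95R.

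KRT15, a keratin of basal and bulge cells among the markers read, had a pattern like that of NTRK2. It had 38359 and 20376 counts in LGR5-high and LGR5-negative of pig 88R, and 77482 and 40007 in pig 95R. The pig term was 0.98 (standard error 0.0907, edgeR adjusted p = 3.93e-06), beside 1.24 for NTRK2. KRT15 was not called across the 4 libraries (log2 fold change 0.76, edgeR adjusted p = 0.187), and passed with the pig as a replicate block (0.73, edgeR adjusted p = 2.13e-06). By RT-qPCR of sorted cells, the study reported no significant enrichment of KRT15 in the cells with LGR5-driven GFP.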
